A study of Mus musculus with 6 samples.

Results

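Complement is a cascade of plasma and tissue proteins that marks microbes and dying cells for removal. Transcripts of 9 mouse genes of this cascade were examined in tracheal mesenchyme: C1qa, C1qb, C1qc, C4b, C3, Cfb, Cfp, C3ar1 and C5ar1. A probe set, the group of oligonucleotides that reads 1 transcript on the array, was included if the platform annotation assigned it to exactly 1 of these symbols. This gave 13 probe sets for 7 of the 9 genes, out of 45037 probe sets and 18193 genes in all. In the annotation used here C3 was paired with no probe set, and C4b only with 1 that is shared with C4a, so neither gene has a value of its own.

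The injured group was tracheal mesenchyme of adult male C57Bl/6 mice at 48 h post injury (48 hpi), after 4 h of breathing SO2 at 500 ppm, a gas that strips luminal cells from the airway epithelium. The control group was the same tissue of mice of that strain and sex, labelled normal control. Each group had 3 samples, and each sample pooled the tissue of 4 mice, so the spread is between pools and not between animals. The epithelium was peeled off after 23 min in dispase and the whole remaining tissue was used, with no sorting of cells.

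In the classical pathway, C1q, a bundle of heterotrimers of the C1qa, C1qb and C1qc products, binds its targets and activates the proteases C1r and C1s, which cleave C4 and C2. In the alternative pathway factor B, encoded by Cfb, supplies the protease of the C3 convertase, and properdin, encoded by Cfp, stabilizes it. Cleavage of C3 and C5 releases the anaphylatoxins C3a and C5a, which act on the receptors encoded by C3ar1 and C5ar1. Tissue macrophages are a main source of C1q, whereas the liver makes most plasma complement. Myeloid cells carry both anaphylatoxin receptors, and neutrophils and monocytes store or secrete properdin.

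Labels were checked against markers. Fibroblast markers were bright, with a mean over 7 genes of 12.52 to 12.74 at 48 hpi and 12.46 to 12.74 in controls (log2). Of 10 epithelial markers none was under 4.74 (the value below which a probe set is called dim) in both groups. The secretory cell gene Scgb1a1 had a mean of 10.31 at 48 hpi and 12.88 in controls. RNA of epithelial cells was thus present in the peeled tissue. The injured pools differed widely in Scgb1a1, from 12.31 in replicate 1 to 8.72 in replicate 3 (SD 1.83, against 0.51 in controls). For the secretory cell gene Scgb3a2 the SD was 1.82 at 48 hpi and 0.51 in controls. The cause of this spread was not tested. Correlations between arrays were 0.987 to 0.994 within groups and 0.974 to 0.989 between them. P-values set the difference between groups against the spread between these pools. In limma that spread is moderated with the spread of all probe sets.

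At 48 hpi, 6 of the 7 measured complement genes rose: C3ar1, Cfp, C5ar1 and all 3 C1q subunits. Cfb did not pass the test. None of the 7 fell, and none was lower at an unadjusted p under 0.05 in limma. The rises ran from 2.15-fold for C1qc to 6.98-fold for C3ar1. In limma with Benjamini-Hochberg adjustment over all probe sets, 10 of the 13 probe sets rose at an adjusted p under 0.05, against 3.49% of all probe sets. Over genes, each read from its brightest probe set, the share was 6 of 7 against 4.97% of all genes. The median log2 fold change was 1.46 over the 7 genes and -0.01 over all genes. The 3 values at 48 hpi all lay above the 3 control values in 10 of the 13 probe sets, against 13.0% of all probe sets. The genes were chosen with earlier results of these data known, so these shares describe the list and do not test it. A change in the number of cells of a type and a change in RNA per cell cannot be told apart in such bulk samples.

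**Figure D1:**
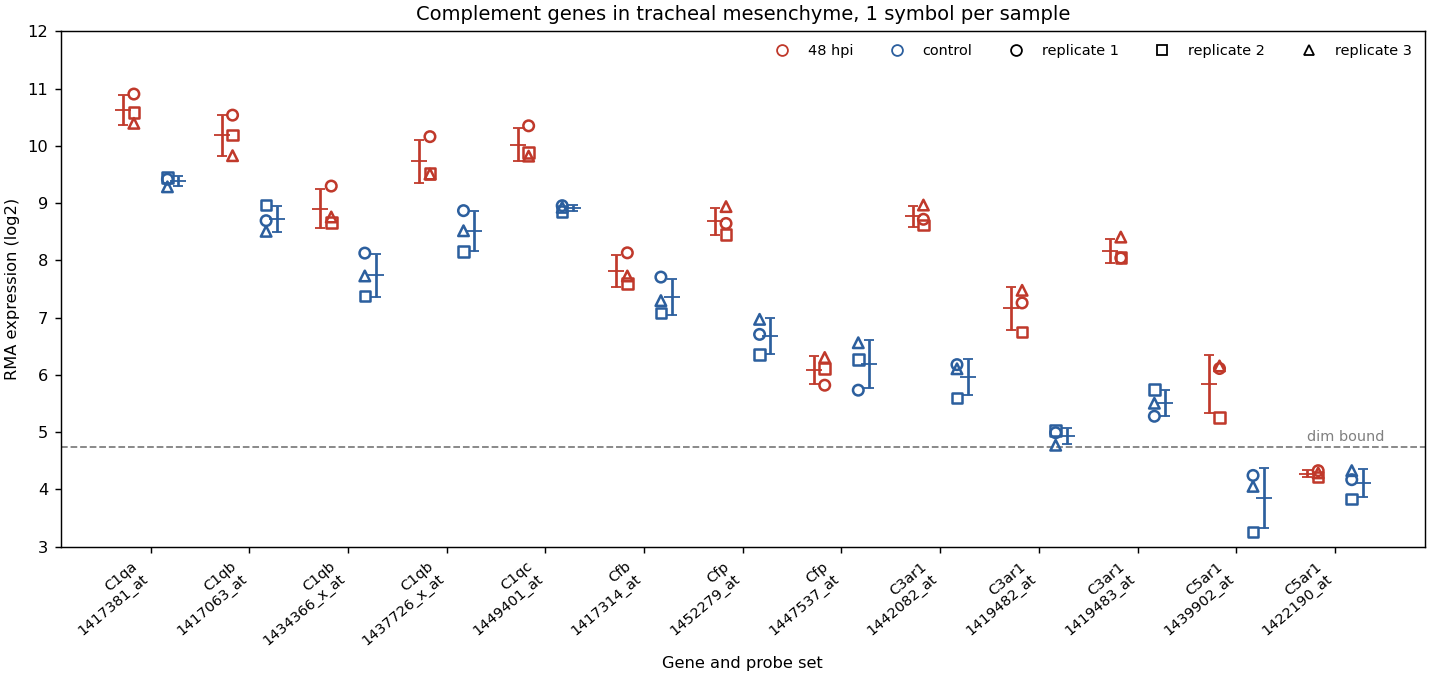
Log2 RMA values (vertical axis) for the 13 complement probe sets (horizontal axis), with 48 hpi in red and controls in blue. Each symbol is a sample, each bar a group mean with its SD (n = 3), and the dashed line the dim bound. The groups are apart in 10 of the 13 probe sets, and overlap for Cfb and for 1 probe set each of Cfp and C5ar1.

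The C1q subunit genes rose together and by similar amounts. C1qa, which encodes the A chain, was at 10.90, 10.58 and 10.39 at 48 hpi, against 9.42, 9.44 and 9.28 in controls. Its lowest value at 48 hpi stood 0.95 above its highest control value. The rise was 2.37-fold (log2 fold change 1.24 ± 0.14, SE, adjusted p = 0.00477). C1qb, which encodes the B chain, was at 10.54, 10.19 and 9.83 at 48 hpi, against 8.69, 8.97 and 8.51 in controls, again without overlap. It rose 2.75-fold (1.46 ± 0.20, adjusted p = 0.0105). C1qc, which encodes the C chain, was at 10.35, 9.89 and 9.82 at 48 hpi, against 8.95, 8.85 and 8.93 in controls. Its 48 hpi samples spanned 0.53 and its controls 0.10, and the groups did not overlap. It rose 2.15-fold (1.11 ± 0.15, adjusted p = 0.00997).

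The other 2 probe sets of C1qb carry the suffix _x_at, given by the maker to sets whose probes may bind other transcripts. They rose 2.24-fold and 2.32-fold (adjusted p = 0.0396 and 0.0360). Each stayed past the threshold in 1 of the 6 fits that left out a sample, whereas the first probe set of C1qb and those of C1qa and C1qc passed in all 6. In all 5 C1q probe sets the highest value at 48 hpi was in replicate 1, and in 4 of them the lowest was in replicate 3.

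The 3 genes are neighbours on mouse chromosome 4, in the order C1qb, C1qc, C1qa, with no other protein-coding gene between them in RefSeq. Because they moved together, the 250 bases before the transcription start are shown for C1qb and C1qc, beside those of C3ar1, the gene with the largest rise among the 7. Sequences are from RefSeq (GRCm38.p6, minus strand in each case), at chr4:136886201-136886450 for C1qb, chr4:136892915-136893164 for C1qc and chr6:122856158-122856407 for C3ar1. Of the 7 measured genes 5 had an entry, and C1qa and Cfb had none. Capitals mark matches to the motifs searched.
C1qb: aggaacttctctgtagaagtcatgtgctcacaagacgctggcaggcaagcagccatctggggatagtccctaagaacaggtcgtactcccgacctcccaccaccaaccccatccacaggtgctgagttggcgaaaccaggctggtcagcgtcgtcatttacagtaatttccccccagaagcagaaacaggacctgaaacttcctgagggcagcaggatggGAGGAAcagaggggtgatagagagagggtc
C1qc: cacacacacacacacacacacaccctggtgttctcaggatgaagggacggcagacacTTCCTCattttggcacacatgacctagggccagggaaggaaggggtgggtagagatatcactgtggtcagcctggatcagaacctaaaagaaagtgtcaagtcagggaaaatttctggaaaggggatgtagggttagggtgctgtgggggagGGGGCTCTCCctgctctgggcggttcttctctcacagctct
C3ar1: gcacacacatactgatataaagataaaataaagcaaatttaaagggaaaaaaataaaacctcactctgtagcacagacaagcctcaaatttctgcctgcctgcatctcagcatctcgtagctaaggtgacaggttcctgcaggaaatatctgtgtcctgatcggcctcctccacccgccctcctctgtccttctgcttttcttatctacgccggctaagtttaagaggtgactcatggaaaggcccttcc

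On both strands of a window of 300 bases (250 before the start and 50 after it), the letters GAGGAA, the core of sites bound by the myeloid factor PU.1, matched once in C1qb, from position -30 relative to the start, and once in C1qc, from position -193 on the opposite strand. In Cfp they matched at 2 places, both just after the start. C3ar1 and C5ar1 held no match in this window. Of 32851 promoter windows 28.3% held that core. The kappa-B consensus, bound by NF-kappaB, matched in C1qc alone of the 5 genes, from position -41, as in 8.46% of all windows. The STAT site TTCNNNGAA (8.30% of windows) and the C/EBP site TTGCNNCAA (2.08%) matched in none of the 5. No matches overlapped. A match describes the letters and not the binding of a factor.

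Of the alternative pathway genes among the 9, Cfp and Cfb were measured. Cfp, which encodes properdin, was at 8.64, 8.46 and 8.94 at 48 hpi, against 6.71, 6.36 and 6.97 in controls. The nearest samples of the groups were 1.49 apart. The rise was 4.00-fold (2.00 ± 0.18, adjusted p = 0.00227), and it passed in all 6 fits without 1 sample. The second Cfp probe set gave no such change, at 5.82, 6.11 and 6.30 at 48 hpi and 5.73, 6.27 and 6.56 in controls. Its log2 fold change of -0.11 had a 95% interval from -0.63 to 0.41, which does not meet that of the first probe set (1.57 to 2.43). When the probe sets of Cfp were averaged, the log2 fold change was 0.95 and still passed.

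Cfb, which encodes factor B, was at 8.13, 7.59 and 7.73 at 48 hpi, against 7.71, 7.08 and 7.30 in controls. The groups overlapped, since the highest control, replicate 1, lay above replicate 2 at 48 hpi. Its log2 fold change was 0.46 ± 0.20 (adjusted p = 0.270), with a 95% interval of the fold from 0.995 to 1.89. With the replicate number as a block, Cfb passed (adjusted p = 0.0206), so that all 7 genes rose in that fit, against 8.77% of all genes.

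Both receptors for the anaphylatoxins rose, C3ar1 in all of its probe sets and C5ar1 in 1 of 2. C3ar1, which encodes the C3a receptor, was at 8.72, 8.62 and 8.97 at 48 hpi, against 6.18, 5.60 and 6.11 in controls. The groups were 2.44 apart at their nearest values. The rise was 6.98-fold, with a 95% interval from 5.27 to 9.26 (adjusted p = 0.000530), and stood at rank 37 of 18193 genes. Its other 2 probe sets rose 4.69-fold and 6.30-fold (adjusted p = 0.00151 and 0.000477). All 3 passed in each of the 6 fits without 1 sample.

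C5ar1, which encodes the C5a receptor, was at 6.11, 5.25 and 6.16 at 48 hpi, against 4.25, 3.26 and 4.05 in controls. Replicate 2 was the lowest sample in both groups. The rise was 3.97-fold (1.99 ± 0.32, adjusted p = 0.0207), but the control mean of 3.85 lay below the dim bound and the fold is poorly fixed. Against the dim bound itself the 48 hpi mean was 2.14-fold higher. The call was lost in 4 of the 6 fits without 1 sample (adjusted p up to 0.0953), namely without 48 hpi replicate 1 or 3 and without control replicate 2 or 3. The second C5ar1 probe set was dim in both groups, at 4.33, 4.22 and 4.29 at 48 hpi and 4.17, 3.84 and 4.33 in controls, and did not pass (0.17 ± 0.13, adjusted p = 0.555). With the probe sets of C5ar1 averaged, the log2 fold change was 1.08 and still passed (adjusted p = 0.0217).

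**Figure D2:**
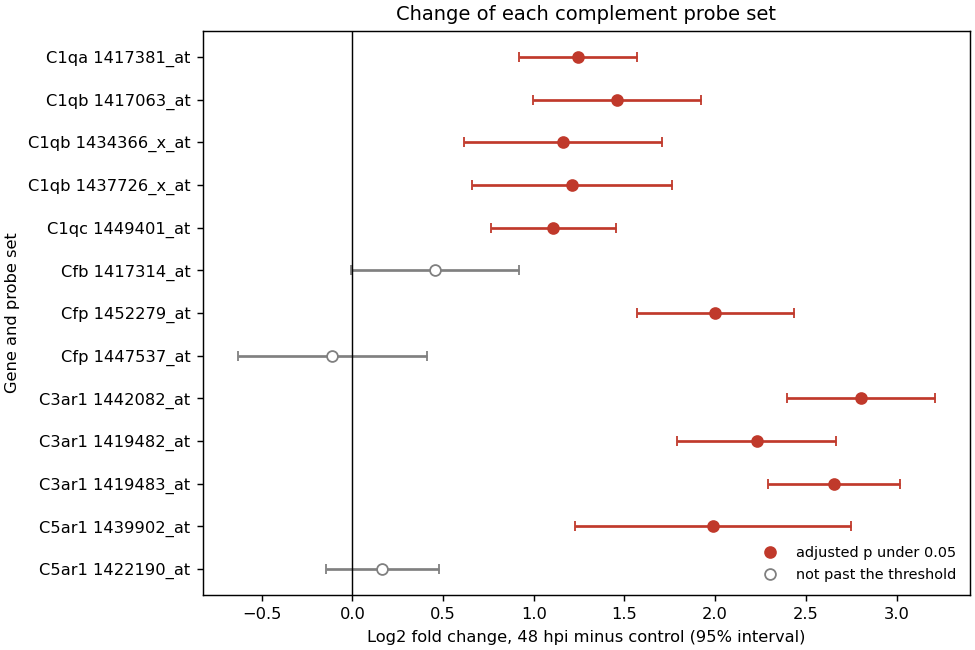
Log2 fold change, 48 hpi minus control (horizontal axis), of each complement probe set (vertical axis) with its 95% interval, filled red where the adjusted p was under 0.05. The intervals of the 3 C3ar1 probe sets lie above 1.79. That of C1qa ends at 1.57, whereas that of the brightest C1qb probe set ends at 1.92 and overlaps the lowest C3ar1 interval.

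The sizes of the rises were compared within arrays, where each sample gives 1 difference between log2 values. The difference between C3ar1 and the mean of the 3 C1q subunits was larger at 48 hpi by 1.53, and in all 3 injured samples it lay above all controls (exact permutation test, two-sided, p = 0.1, the smallest that 3 against 3 samples allow). For Cfp the same difference was larger by 0.73 on average, with overlap between the groups (exact p = 0.2). Between same-numbered samples, Cfp minus C1q was higher at 48 hpi by 0.36, 0.97 and 0.86 (exact sign-flip permutation test, p = 0.25, the smallest that 3 pairs allow). For Cfb the group means of this difference were -2.46 at 48 hpi and -1.64 in controls (exact p = 0.1), and all injured samples lay below all controls. These 3 differences and that of C3ar1 to the macrophage markers were chosen after their values were seen. Over the 5 differences tested, adjusted p ran from 0.167 to 0.3. Between same-numbered samples each of the 5, and not only that of Cfp, went 1 way in all 3 pairs (exact sign-flip permutation test, p = 0.25 for each). For the C1q subunits less the macrophage markers the pairs gave 0.50, 0.03 and 5e-06.

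Most macrophage markers moved with the complement genes. Of 14 macrophage markers 10 rose and none was below the dim bound in both groups, with a mean over the list of 8.89 to 9.16 at 48 hpi and 7.79 to 8.08 in controls. The largest of these rises, as log2 fold changes by the brightest probe set, were in the scavenger receptor gene Msr1 (2.45), the endosomal gene Cd68 (2.28) and the Fc receptor gene Fcgr1 (2.22). Other probe sets gave smaller changes, with 1.17, 0.60 and 0.41 for Msr1 (the last not past, adjusted p = 0.0879 in limma) and 0.90 for Fcgr1. The 4 that did not pass were Lyve1 (0.46), Cx3cr1 (0.01), Lyz2 (-0.43) and Mertk (-0.45), and Mertk fell with the replicate block (adjusted p = 0.0326). Lyz2 was at 13.23 in controls, and which cells its signal came from was not tested. The C1q subunits, less the macrophage markers, differed by 0.18 between the groups, with 1.44, 1.33 and 0.93 at 48 hpi and 0.94, 1.30 and 0.93 in controls (exact permutation test, p = 0.3). C3ar1, less the same markers, was higher by 1.71 at 48 hpi, without overlap (exact permutation test, p = 0.1). The part of macrophages in the rises was not tested.

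Of 11 measured neutrophil markers 3 rose, S100a8 (log2 fold change 4.27), S100a9 (4.13) and Csf3r (1.12), with a list mean of 6.56 to 6.98 at 48 hpi and 5.60 to 6.09 in controls, while Cxcr2, Mmp8 and Elane were dim in both groups. At an unadjusted p under 0.05, 4 of the 11 were higher and 2 lower. At that level 4830 of all 45037 probe sets were higher and 3732 lower. The granule genes Ltf (-0.75, adjusted p = 0.149) and Ngp (-0.26, adjusted p = 0.167) did not pass, although all injured samples lay below all controls, and Camp (0.01) and Mpo (-0.14) overlapped. Ltf, which is part of the list mean, was at 13.66 in controls, and which cells its signal came from was not tested. Mmp9 passed with the block (0.98, adjusted p = 0.123 without it and 0.00178 with it). In limma none of the 6 mast cell, 5 dendritic cell, 5 T and NK cell, 4 B cell, 10 epithelial, 5 smooth muscle or 2 erythroid markers passed the test. At an unadjusted p under 0.05, 1 mast cell and 1 dendritic cell marker were higher and 2 epithelial markers lower, and with the replicate block 3 mast cell markers and 1 dendritic cell marker rose and 2 epithelial markers fell. Chondrocyte markers, with 0 of 5 past the test, had a list mean of 10.93 to 11.30 at 48 hpi and 11.49 to 11.71 in controls. At an unadjusted p under 0.05, 3 of these 5 were lower, and with the block Sox9 (adjusted p = 0.0292) and Matn1 (adjusted p = 0.0269) fell. The adhesion gene Cdh5 was the 1 of 5 endothelial markers to rise (0.71), and the matrix gene Dpt the 1 of 7 fibroblast markers to fall (-0.53). The block added rises of the endothelial marker Pecam1 (0.53, adjusted p = 0.0275) and the fibroblast marker Col1a1 (0.51, adjusted p = 0.0221). At 48 hpi C3ar1, C5ar1 and Cfp, each by its brightest probe set, were highest in replicate 3 and lowest in replicate 2, as were the neutrophil markers on average, whereas C1q was highest in replicate 1 and lowest in replicate 3. The C1q order was shared by the list means of epithelial, mast cell, dendritic cell, T and NK cell and endothelial markers. What this order reflects was not tested. The macrophage markers were on average highest in replicate 1 and lowest in replicate 2. Msr1, Cd68 and Fcgr1, each by its brightest probe set, were highest in replicate 3. The Msr1 probe sets with log2 fold changes of 0.60 and 0.41 were highest in replicate 1.

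**Figure D3:**
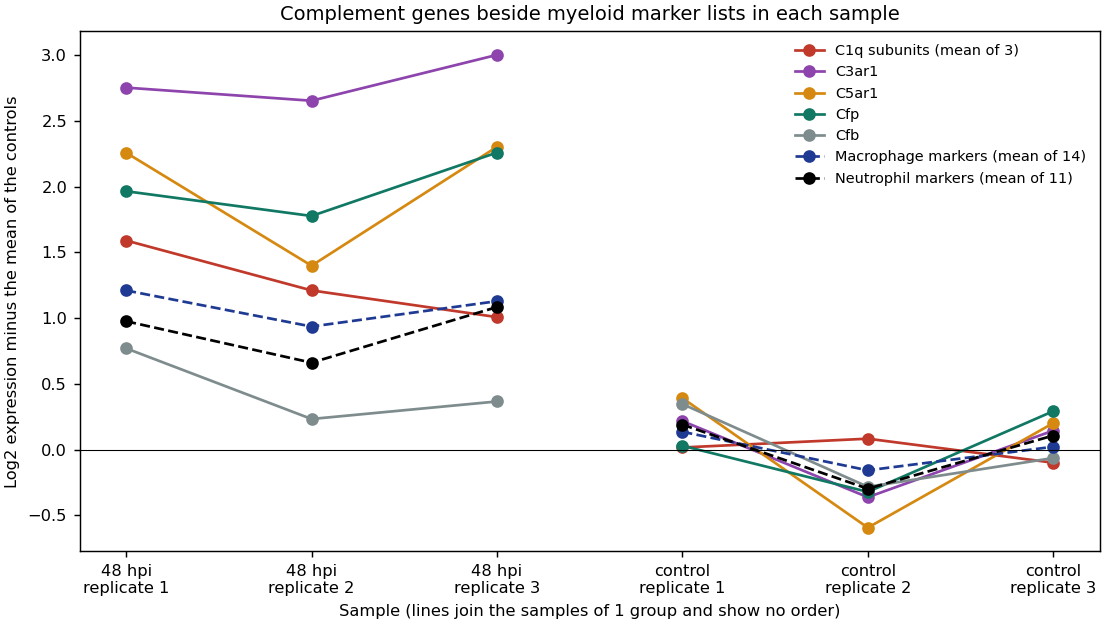
Log2 expression minus the mean of the 3 controls (vertical axis) in each of the 6 samples (horizontal axis) for the complement genes (solid) and the mean of the macrophage and neutrophil markers (dashed). C3ar1 lies between 2.65 and 3.00 at 48 hpi, the C1q mean between 1.01 and 1.59 and the macrophage markers between 0.94 and 1.21.

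Most of the remaining complement pathway did not pass the test. Of 51 further genes of the pathway 40 were measured, 3 rose and 0 fell, against 4.97% and 1.24% of all genes. Their median log2 fold change was -0.07, and 15 of the 40 were dim in both groups. At an unadjusted p under 0.05, 8 were higher and 5 lower, beside 4830 higher and 3732 lower of all 45037 probe sets. The 3 that rose were receptors. Itgam, the alpha chain of complement receptor 3, was at 6.90, 6.56 and 7.06 at 48 hpi, against 4.26, 3.78 and 3.82 in controls (2.88 ± 0.17, adjusted p = 0.000505). Its controls were below the dim bound and the fold is poorly fixed, with 7.38-fold as fitted and 4.27-fold for the 48 hpi mean over the bound. Itgb2, its beta chain, was at 8.85, 8.47 and 9.24 at 48 hpi, against 7.38, 6.63 and 7.27 in controls (1.76 ± 0.25, adjusted p = 0.0134). Itgb2 lost its call without 48 hpi replicate 3 (adjusted p = 0.0551). Cd93, a membrane protein of endothelial and myeloid cells first described as a C1q receptor, was at 9.63, 9.72 and 9.72 at 48 hpi, against 8.69, 8.83 and 8.96 in controls (0.87 ± 0.10, adjusted p = 0.00511), and 3 of its 5 probe sets rose.

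Recognition and protease genes gave 0 calls among 12 in limma, where 2 were higher and 2 lower at an unadjusted p under 0.05. C1s1 and C1ra, which encode the proteases that C1q activates, did not pass the test. C1s1 was at 10.34, 10.39 and 10.16 at 48 hpi, against 10.57, 10.52 and 10.54 in controls (-0.25 ± 0.09, adjusted p = 0.198), with all injured samples below the controls. C1ra differed by -0.12 ± 0.16 (adjusted p = 0.741) and its groups overlapped.

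Of the 6 terminal pathway genes, which build the membrane attack complex, 5 were dim in both groups, and C6 (-0.27) and C8g (-0.07) did not pass. Fluid phase regulators gave 0 calls among 8 in limma, and 1 was lower at an unadjusted p under 0.05. Serping1, the C1 inhibitor, was at 11.50, 11.65 and 11.43 at 48 hpi, against 11.84, 11.84 and 11.87 in controls (-0.32 ± 0.09, adjusted p = 0.101). The injured samples all lay below the controls, which were within 0.03 of each other. Clusterin (Clu), a chaperone that blocks the attack complex, differed by -0.19 ± 0.12. Among 6 membrane regulators Cd59a (-0.13) and the mouse C3b regulator Cr1l (0.04) did not pass either.

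With the replicate number as a block, 7 of the 40 rose and 1 fell, against 8.77% and 4.64% of all genes. The block added the lectin pathway ficolin Fcna (0.90, adjusted p = 0.0656 without the block and 0.0256 with it), the receptors Itgax (0.51, 0.136 and 0.0167) and Vsig4 (1.22, 0.173 and 0.0194), and the C1q-binding protein C1qbp (0.41, 0.177 and 0.0437, in its brightest probe set), while the regulator Susd4 fell (-0.48, 0.0957 and 0.0206). These 5 genes were picked out because of those values. The other probe set of C1qbp rose without the block (0.66, adjusted p = 0.0306). When the probe sets of each gene were averaged, 5 of the 40 rose, with C1qbp (0.54, adjusted p = 0.0279) and Fcna (adjusted p = 0.0396) beside Itgam, Itgb2 and Cd93.

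**Figure D4:**
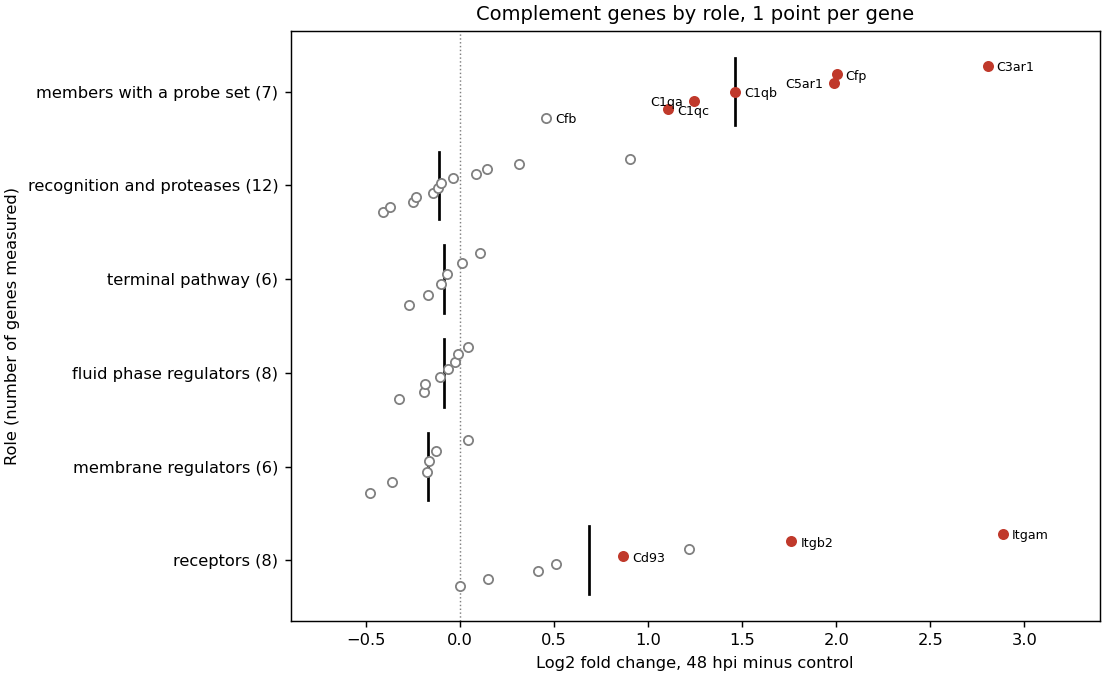
Log2 fold change, 48 hpi minus control (horizontal axis), of the 7 measured complement members and of 40 further complement genes by role (vertical axis). Each point is a gene, red if it passed the test, and bars give medians. The medians are 1.46 for the members, 0.69 for the other receptors and between -0.17 and -0.09 for the remaining 4 roles.

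The genes most like C1q over the 6 samples were sought by the root mean square distance between values centred on each gene's own mean. Among 13264 genes above the dim bound, the nearest to the mean of the C1q subunits were Tnfaip8l2 (0.080 on the log2 scale), Mmp3 (0.106), Ackr1 (0.123), Trem2 (0.134) and Epsti1 (0.156). C1qa, C1qb and C1qc themselves lay at 0.028, 0.135 and 0.118 from it. Each is part of that mean, which makes these distances smaller than those of outside genes by construction. Trem2, a lipid receptor of macrophages, was at 6.74, 6.35 and 6.52 at 48 hpi, against 5.35, 5.24 and 5.10 in controls. Mmp3, a matrix protease made by fibroblasts, was at 9.41, 8.79 and 8.73 at 48 hpi, against 7.86, 7.76 and 7.46 in controls. Ackr1 is a chemokine-binding receptor of venular endothelium and red cells. The distance is a description over 6 samples that share 1 contrast.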

How the data were processed

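RNA of 6 samples of tracheal mesenchyme was hybridized to Affymetrix GeneChip Mouse Genome arrays, 1 per sample. The values the authors deposited are log2 intensities by robust multi-array analysis (RMA), that is, after background correction, quantile normalization and summary over probes. Partek 6.5 and Affymetrix Expression Console 1.1 are listed by the submitters' processing notes. RMA hides a change shared by most genes and compresses folds of dim genes. The number of arrays limits the precision.

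Of 45101 probe sets 64 Affymetrix controls were left out. By the platform annotation 34945 probe sets had a single symbol, 932 had more and 9160 had none, and 34741 were matched to RefSeq (GRCm38.p6) for names. A gene took its brightest probe set. The test was limma 3.58.1 (R 4.3.3), two-sided, at adjusted p 0.05 with group as the factor. It was also run on simulated data whose noise was independent between samples. That run does not cover the shared deviations of same-numbered samples described below. The bound for dim probe sets is the 40th percentile of all values, 4.74, since only 44 olfactory receptor probe sets were found for the intended bound and 100 were required.

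Members and lists were chosen with earlier results of these data known. Named were all member probe sets, other complement genes past the threshold or, in a role with none, the 2 brightest, up to 3 called genes of each marker list, and the 5 genes nearest to C1q. The same search for C3 was not possible without a probe set. Beyond this rule, other genes without a call were named too, some because of their blocked values or because their groups lay apart.

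Same-numbered samples deviated together after removal of group means (correlations 0.62, 0.36 and 0.34, from the data and not the labels), so blocked values are given where the block changed a call of a complement gene, and for the marker lists. It has 2 residual degrees of freedom. The methods' two-way analysis of variance also used epithelium, not analysed here. Alternatives were this block, leaving out samples, a filter on dim probe sets, 2 other scalings, averaged probe sets and 2 other spread estimates.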

Additional observations from a re-analysis of the deposited data

Results flagged for a closer look

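The probe set that the annotation assigns to both C4a and C4b was outside the comparisons because it has no single gene. It was at 11.22, 11.16 and 11.14 at 48 hpi, against 11.02, 10.76 and 10.94 in controls, so that all injured samples lay above the controls, by 0.12 at the nearest. The log2 fold change was 0.27 ± 0.09 (SE) and did not pass in limma (adjusted p = 0.185). The 2 genes are near-identical copies, and their shares in this signal cannot be told apart.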

How the results depend on the processing

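The directions of the 7 complement genes and of Itgam, Itgb2 and Cd93 held in all alternatives run. Of 140 such values 124 kept their side of the threshold, 15 lost a call and 1, Cfb with the replicate block, gained one. An analysis of variance with no moderation of the spread accounted for 9 of the 15 losses: adjusted over all probe sets it called 0 of the 7 genes and 0 of the 13 probe sets, although 6 and 10 were higher at an unadjusted p under 0.05, and 0 of the 40 other complement genes (4 higher, unadjusted). It called 70 higher and 8 lower probe sets in all, against 1572 and 381 in limma. Without adjustment it had 4353 of all 45037 probe sets higher and 3125 lower at p under 0.05. The other losses were C5ar1 in 4 leave-one-out fits and without both samples numbered 1 (adjusted p = 0.0613), and Itgb2. Without 1 sample, 5 to 6 of the 7 genes and 7 to 10 of the 13 probe sets rose, and 2 to 3 of the 40 other genes, of which averaged probe sets, tried after seeing the data, called 5, while all probe sets gave 548 to 1086 higher and 34 to 176 lower. Without both samples numbered 1 these were 683 and 144, with 5 complement genes called. The replicate block gave 2896 and 2032, with 7 higher and 1 lower among the 40. Scaling to the Affymetrix control probe sets shifted the median of all probe sets by 0.125, called 1303 higher and 58 lower probe sets, moved the share of higher calls to 95.7%, against 80.5%, and called 5 of the 40 higher. The cause of these differences was not tested, and the leave-one-out fits also had fewer samples. The C1q difference to macrophage markers ran from 0.077 to 0.33 without 1 sample, and the block changed no call among the 7 genes other than Cfb.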
